A study of Homo sapiens with 12 samples.

Results

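TAMs cocultured with MMP28-overexpressing pancreatic cancer cells in the presence of a VEGFA neutralizing antibody (anti-VEGFA) were compared with TAMs cocultured with cancer cells that carried the empty vector (control). The comparison took the 3 anti-VEGFA libraries and the 3 control libraries, 6 of the 12 libraries of the series, as their labels name them. The TAMs were THP-1 cells, a human acute monocytic leukaemia line, that had been turned into macrophage-like cells with the phorbol ester PMA. The cancer cells were AsPC-1, a human pancreatic adenocarcinoma line, modified with lentivirus and kept apart from the TAMs by a membrane. Control TAMs therefore met neither MMP28 overexpression nor antibody, and anti-VEGFA TAMs met both, so that the share of each in a difference cannot be told apart from these 6 libraries. For that reason the 3 libraries of TAMs cocultured with MMP28-overexpressing cells without antibody (OE-MMP28) are given beside part of the results. A change given without them may also be present without antibody, and is not shown to be particular to anti-VEGFA TAMs. No sequenced group is named for a control antibody. Both cell lines are 1 line each, and nothing states that the 3 libraries of a group came from separate cultures, so that p-values measure only the spread between these samples, which may be technical.

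VEGFA is a secreted growth factor best known for the growth of blood vessels, and macrophages can carry its receptor FLT1 and the coreceptors NRP1 and NRP2. MMP28 is a secreted metalloproteinase. Interferons, whose target genes held the deepest falls here, signal through JAK kinases to transcription factors such as STAT2 and IRF9, which bind a short promoter element, the interferon-stimulated response element (ISRE), and switch on genes for antiviral proteins, for T cell-attracting chemokines and for sensors of foreign nucleic acid.

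The 6 libraries held 15852346 to 18701195 counts in genes, at which 3 counts correspond to 0.160 to 0.190 CPM (counts scaled by TMM-adjusted library size, the unit of all levels here). Genes of the mitochondrial genome took 7.44% to 9.95% of the control counts, and 6.92%, 17.8% and 10.3% of the counts of anti-VEGFA replicates 1, 2 and 3, so that replicate 2 stood apart. Results are given without that library wherever a count moved by more than 1.5 times. The macrophage markers CD14, ITGAM, CSF1R, SPI1, FCER1G, TYROBP and LAPTM5 were counted in all 6 libraries with at least 1668 counts. LYZ had 76 to 154 counts, and AIF1 had 223, 279 and 280 in control and 151, 181 and 212 with anti-VEGFA. By contrast, CD68 had 0 to 5 counts and the mannose receptor gene MRC1 0 to 3. Whether the counting left out reads of these 2 genes that overlap another gene or match a copy was not tested, so that their counts do not show the genes to be silent. The summed level of the 10 macrophage markers was 3596 to 4054 CPM in control and 4429 to 4784 CPM with anti-VEGFA. In this sum CD14 alone averaged 752 CPM in control and 1386 CPM with anti-VEGFA. It was the 1 marker called by edgeR of the 9 tested, where DESeq2 called 2 higher and 1 lower. The 10 epithelial markers, in which cancer cell RNA would show, summed to 4.79 to 5.86 CPM in control and 4.57 to 4.64 CPM with anti-VEGFA, with EPCAM at 0 counts. The T cell markers CD3D, CD3E and CD3G were at 0 counts. The 4 fibroblast markers summed to 3.12 to 3.54 CPM in control and 1.97 to 2.91 CPM with anti-VEGFA, with LUM at 0 counts, and the 3 B cell markers to 0.462 to 1.30 and 1.72 to 2.48 CPM. The endothelial sum, 514 to 651 and 346 to 522 CPM, was almost all PECAM1, which macrophages also carry. MMP28, modified in the cancer cells and not in the sequenced TAMs, had 0 counts in all 12 libraries and so checks no label.

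Of 16046 genes tested, 898 were higher and 862 lower with anti-VEGFA than in control, which is 5.60% and 5.37% of the genes tested and 11.0% in all (edgeR adjusted p under 0.05). Most changes were small. The median size was 1.69-fold among the genes that rose and 1.67-fold among those that fell, and 282 and 262 genes changed by at least 2-fold. The largest changes lay among the genes that fell: 21 of them, against 11 of those that rose, changed by at least 8-fold. Protein-coding genes made up 768 of the rises and 766 of the falls. In 881 of the 898 rises and in all 862 falls the 3 libraries of one group lay wholly above those of the other, where 34.3% of all tested genes had groups that did not overlap. The count of calls rested on the control libraries in particular: 662 to 954 genes were called when any 1 control library was left out, 1105 without anti-VEGFA replicate 3 and 1318 without anti-VEGFA replicate 2. Leaving out OE-MMP28 replicate 2 or 3, which enter the estimate of the spread, raised the count of rises to 1417 and 1379. Of the 149 called genes named by rule, 90 kept the call in each of the up to 23 alternatives in which they had a value, the threshold on fold aside, 50 lost the call without control replicate 2 and 24 without anti-VEGFA replicate 2.

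**Figure D1:**
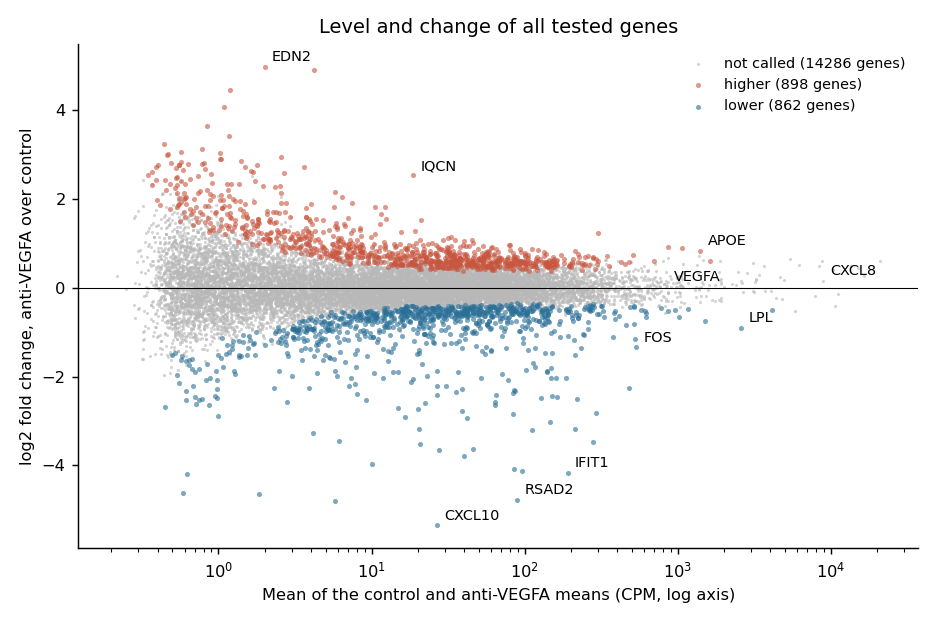
Level of each tested gene (mean of the 2 group means in CPM, log axis) against its log2 fold change with anti-VEGFA over control; colour marks the 898 higher and 862 lower genes. CXCL10, RSAD2 and IFIT1 lie at the bottom among genes of middle level, whereas the highest points, such as EDN2, are genes of low level.

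GC content moved with the direction of change. The median GC content of the longest transcript was 59.0% among the genes that rose, 43.8% among those that fell and 48.3% over all tested genes. In the decile of genes richest in GC the median log2 fold change was 0.38 and 20.01% of genes were called higher, whereas in the decile poorest in GC the median was -0.12 and 1.31% were called higher. With offsets that remove the trend of each library on GC content and length, chosen after these values had been seen, 575 of the 898 rises and 722 of the 862 falls were still called in the same direction. The part of GC content in single changes was not tested, and the named genes whose calls were lost with these offsets are given beside their results.

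**Figure D2:**
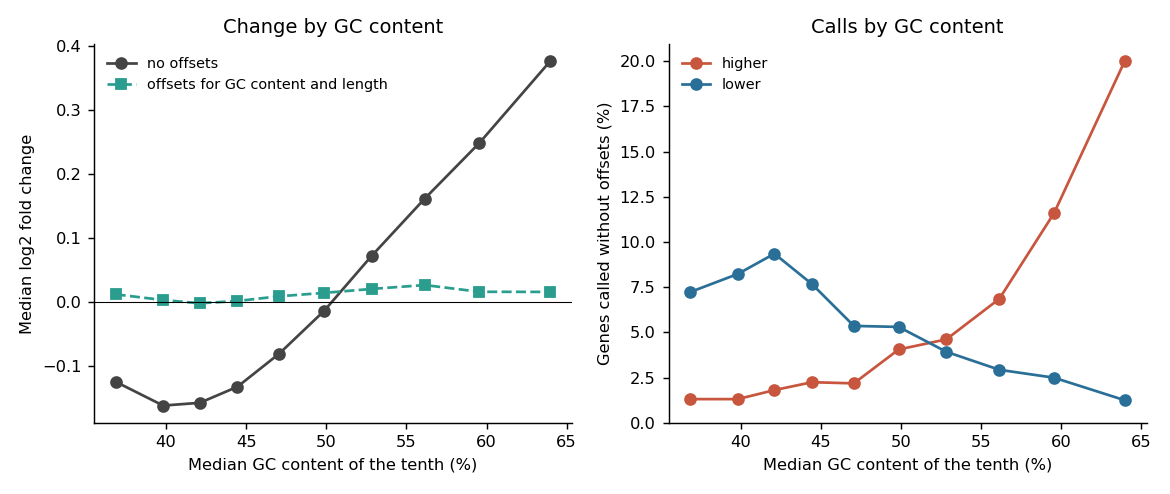
Tested genes in deciles by GC content (x axis, median GC content of each decile in percent). Left, the median log2 fold change with anti-VEGFA over control is -0.12 in the poorest and 0.38 in the richest decile without offsets and stays within 0.03 of 0 with them; right, the share of genes called higher is 1.31% in the poorest and 20.01% in the richest decile, where the share called lower is 1.25%.

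The deepest falls were in interferon-stimulated genes. Of 40 tested members of a list of antiviral effector genes, 38 were lower and none higher with anti-VEGFA than in control (none higher either at an unadjusted p under 0.05, by DESeq2 or by limma voom), and the median log2 fold change was -2.48, against 0.00 over all tested genes. IFI6, at -0.57, was among the members not called. The count was 37 to 40 when any 1 library was left out, 37 without anti-VEGFA replicate 2, and 39 with the offsets for GC content and length.

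CXCL10 (chr4:76021117-76023497 in GRCh38), a chemokine that draws activated T cells through CXCR3, fell the most of all genes named by the rule. Its level was 48.3, 63.8 and 43.5 CPM in the 3 control libraries and 1.54, 1.33 and 0.960 CPM in the 3 anti-VEGFA libraries, a log2 fold change of -5.34 ± 0.31 (SE; edgeR adjusted p = 3.65e-09). CXCL11, a ligand of the same receptor, went from 11.1 ± 3.74 to 0.404 ± 0.238 CPM (mean ± SD, n = 3, as in all such pairs below). The third ligand, CXCL9, was not tested, with 6, 11 and 20 counts in control and 0 in each anti-VEGFA library. RSAD2, the antiviral enzyme viperin, measured 162, 212 and 144 CPM in control and 8.55, 5.14 and 5.28 CPM with anti-VEGFA, 27.2-fold lower (adjusted p = 1.61e-09). CMPK2 overlaps RSAD2 in the genome, and with a library kit that does not mark strand their reads cannot be fully told apart. CMPK2 went from 161 ± 36.0 to 9.47 ± 2.73 CPM. IFIT1, which binds viral RNA that lacks the host cap, measured 348, 442 and 295 CPM in control and 22.2, 23.8 and 14.8 CPM with anti-VEGFA, and its relatives IFIT2 and IFIT3 fell by 4.13 and 3.47 on the log2 scale. In CXCL10, RSAD2 and IFIT1 every control library lay above every anti-VEGFA library, but the naming rule required this and it adds no support. IFITM1, a membrane protein that hinders viral entry, went from 75.1 ± 15.2 to 5.46 ± 0.895 CPM, IFI44L from 18.9 ± 5.08 to 1.22 ± 0.547 CPM, OASL, related to the oligoadenylate synthetases, from 51.0 ± 12.3 to 4.09 ± 0.896 CPM and HERC5, the ligase that attaches ISG15, from 85.2 ± 17.4 to 6.86 ± 1.58 CPM.

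Promoters of the 4 deepest falls that hold an ISRE match are shown because the fall of these genes together is the main feature of the comparison. Each line gives the 250 bases before the RefSeq start site (GRCh38.p14), 5′ to 3′ on the gene's strand, with the ISRE letters in capitals (GAAA, any 2 bases and GAAA, or on the opposite strand TTTC, any 2 bases and TTTC). They lie at chr4:76023498-76023747, minus strand (CXCL10), chr10:89392373-89392622, plus strand (IFIT1), chr1:78620198-78620447, plus strand (IFI44L) and chr11:313790-314039, plus strand (IFITM1).
CXCL10: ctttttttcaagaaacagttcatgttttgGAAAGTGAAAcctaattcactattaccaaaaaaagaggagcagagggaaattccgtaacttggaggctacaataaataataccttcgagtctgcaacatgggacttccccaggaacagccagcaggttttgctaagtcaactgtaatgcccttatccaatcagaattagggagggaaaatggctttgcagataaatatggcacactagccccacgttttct
IFIT1: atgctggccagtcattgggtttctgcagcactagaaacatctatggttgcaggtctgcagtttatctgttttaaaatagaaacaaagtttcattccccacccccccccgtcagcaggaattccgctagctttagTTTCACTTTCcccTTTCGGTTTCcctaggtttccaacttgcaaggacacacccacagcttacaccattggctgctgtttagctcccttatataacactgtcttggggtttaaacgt
IFI44L: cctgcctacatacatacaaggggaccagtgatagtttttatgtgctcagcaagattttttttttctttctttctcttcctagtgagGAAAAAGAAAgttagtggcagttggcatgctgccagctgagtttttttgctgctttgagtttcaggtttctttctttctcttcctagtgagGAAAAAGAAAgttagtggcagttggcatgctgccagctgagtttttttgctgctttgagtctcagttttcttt
IFITM1: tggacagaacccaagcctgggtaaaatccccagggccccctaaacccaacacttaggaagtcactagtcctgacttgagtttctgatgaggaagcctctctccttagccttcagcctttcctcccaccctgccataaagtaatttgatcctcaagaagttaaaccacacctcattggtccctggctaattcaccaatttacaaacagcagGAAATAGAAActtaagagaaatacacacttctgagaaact
The match starts at base -221 in CXCL10, at -116 and -103 on the opposite strand in IFIT1, at -164 and -73 in IFI44L, and at -40 in IFITM1, where a second match crosses the start site. Over windows of 300 bases (250 before to 50 after the start), 996 of 27305 RefSeq promoters (3.65%) held these letters on either strand, as did 67 of 622 matched genes that fell (10.8%), 11 of 604 that rose (1.82%) and 20 of 31 matched interferon effectors (64.5%). Of the 12 largest falls, 10 had a promoter in the table and 7 of these a match. A match is a description of the letters only.

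The proteins that carry and sense interferon signals fell in part. Of 21 tested ligands, receptors and signal carriers, 8 were lower and none higher (1 higher at an unadjusted p under 0.05, none by DESeq2 or limma voom), with a median log2 fold change of -0.37. The count of falls was 5 without control replicate 2 or anti-VEGFA replicate 3. STAT2, a transcription factor of the pathway, went from 293 ± 25.3 to 129 ± 22.9 CPM, and USP18, a protease that removes ISG15 and damps the receptor, from 110.3 ± 16.3 to 17.8 ± 3.21 CPM. Of 15 tested sensors of nucleic acid 8 were lower, with a median of -1.16. DDX58, which encodes the RNA sensor RIG-I, went from 146 ± 23.0 to 20.5 ± 1.61 CPM (log2 fold change -2.83 ± 0.16), IFIH1, the RNA sensor MDA5, from 113 ± 18.2 to 29.4 ± 4.10 CPM, and AIM2, a sensor of cytosolic DNA, from 38.6 ± 8.71 to 6.40 ± 1.91 CPM. All 5 tested guanylate-binding proteins, GTPases that attack pathogen vacuoles, were lower, in every alternative and with every library left out, with GBP1 at 36.5 ± 8.62 and 4.07 ± 0.907 CPM. In antigen presentation on MHC class I, 4 of 20 members were lower and 1 higher: the peptide pump genes TAP1 (log2 fold change -1.07, as all single values in brackets after a gene from here on) and TAP2 (-0.50), the immunoproteasome subunit PSMB9 (-1.43) and the transactivator NLRC5 (-0.63) fell, and TAPBP (0.53) rose, a call lost with the GC and length offsets (adjusted p = 0.054) and without any 1 control library or anti-VEGFA replicate 2 or 3. Without control replicate 2 the calls among the falls were 2, and with the offsets 7. The share called in this list was 25%, against 11.0% over all tested genes. None of 12 MHC class II genes was called by edgeR, DESeq2 or limma voom, and 3 were past an unadjusted p of 0.05.

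Against control, 507 genes (3.16%) were called in OE-MMP28 TAMs, a comparison that shares the control libraries, and 39 of the 40 effectors were among them as lower. The falls of the named genes were thus also present in TAMs cocultured with MMP28-overexpressing cells without antibody. CXCL10 measured 0.661 ± 0.622 CPM in the OE-MMP28 libraries, RSAD2 4.52 ± 1.02 CPM and IFIT1 16.2 ± 5.32 CPM. In the direct comparison of anti-VEGFA with OE-MMP28, none of the 40 effectors was called by edgeR, where 10 were past an unadjusted p of 0.05, all of them higher with anti-VEGFA, 2 were called by DESeq2 and none by limma voom. The direct log2 fold change was 0.90 ± 0.43 for CXCL10 (adjusted p = 0.27) and 0.32 ± 0.22 for IFIT1 (adjusted p = 0.45).

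**Figure D3:**
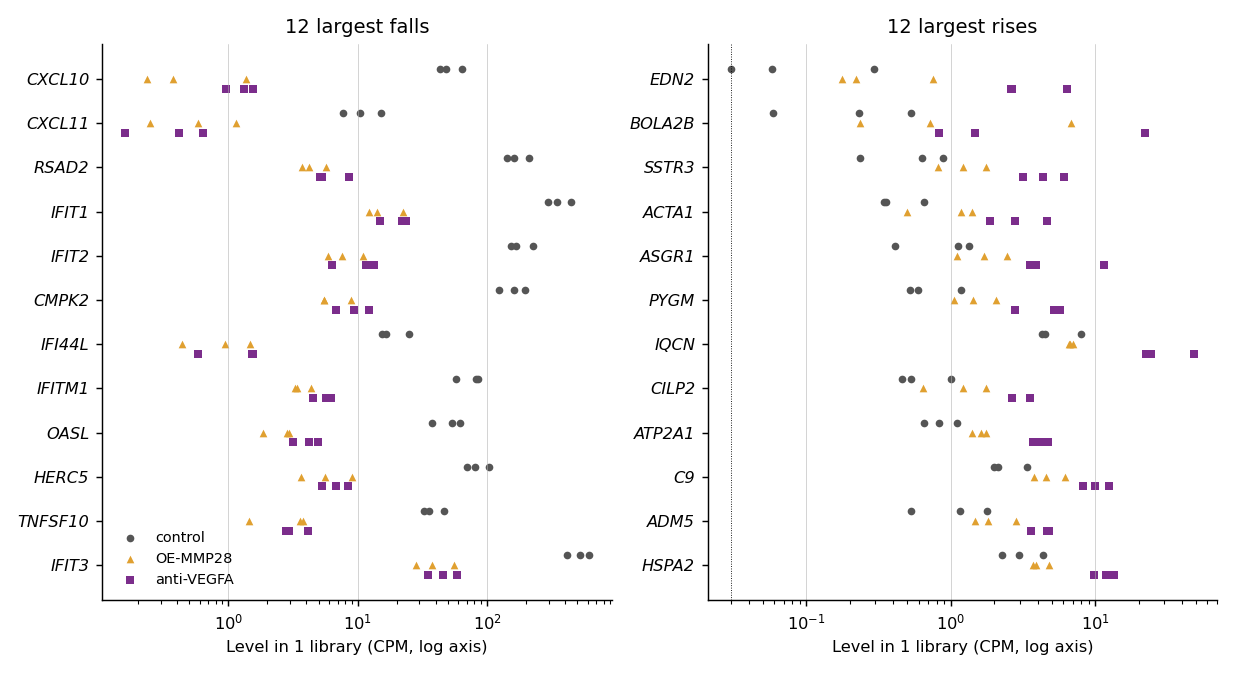
Level in each library (x axis, CPM, log axis) of the 12 largest falls and 12 largest rises with anti-VEGFA; circles are control, triangles OE-MMP28 and squares anti-VEGFA libraries, 3 each, and values at 0 sit on the dotted line. Among the falls the OE-MMP28 libraries lie with the anti-VEGFA libraries, whereas among the rises most lie between the other groups.

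Other secreted signals moved in both directions. Of 11 tested CXC chemokines 5 were lower and none higher by edgeR (1 higher by DESeq2 and at an unadjusted p under 0.05, none by limma voom). Beside CXCL10 and CXCL11, the falls were the neutrophil attractants CXCL5 (160.4 ± 29.5 to 76.2 ± 19.6 CPM), CXCL6 (43.9 ± 6.42 to 21.2 ± 4.84 CPM) and PPBP (7.39 ± 2.40 to 2.56 ± 0.772 CPM). Of 12 CC chemokines 4 rose and 1 fell. CCL3, which attracts monocytes through receptors such as CCR1, measured 75.5, 77.1 and 86.0 CPM in control and 137, 140.2 and 158 CPM with anti-VEGFA (log2 fold change 0.87 ± 0.20, adjusted p = 0.011), and CCL4 went from 19.04 ± 2.49 to 35.6 ± 12.7 CPM. CCL3L1 and CCL4L2 (0.70 and 0.73) also rose, but they are near-identical copies of CCL3 and CCL4, so how reads were split among the copies is uncertain. The count of these rises was 0 without control replicate 2, 1 without control replicate 1 or anti-VEGFA replicate 3, and 4 without anti-VEGFA replicate 2. CCL8 fell from 11.7 ± 4.62 to 2.503 ± 0.559 CPM.

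Among 37 interleukins and inflammatory cytokines 10 fell and 4 rose, with a median of 0.01. The death ligand TNFSF10 (TRAIL) went from 38.2 ± 7.33 to 3.29 ± 0.713 CPM and the B cell survival factor TNFSF13B (BAFF) from 25.7 ± 6.18 to 3.98 ± 1.43 CPM, both interferon-responsive, and IL36RN, an antagonist of the IL-36 receptor, from 9.11 ± 0.999 to 3.33 ± 0.852 CPM. TNF measured 67.0, 60.6 and 69.8 CPM in control and 124, 58.7 and 136 CPM with anti-VEGFA, so that replicate 2 lay below the control libraries (adjusted p = 0.048, and 0.095 with the GC and length offsets). The TNF call was also lost with limma voom and without any 1 control library. EBI3 (0.60) and TSLP (0.80) rose as well, as did LTA, at no more than 26 counts in any of the 6 libraries. The count of these rises was 1 without control replicate 1 or 2 or anti-VEGFA replicate 3 and 2 without control replicate 3, OE-MMP28 replicate 1 or anti-IL-8 replicate 3, and the falls were 6 without control replicate 3 or anti-VEGFA replicate 2. Of 24 NF-kB pathway genes 4 rose and none fell (1 fell at an unadjusted p under 0.05 and by DESeq2, none by limma voom), with a median of 0.14. They were the subunit gene NFKB2 (96.7 ± 7.15 to 168 ± 21.6 CPM), the inhibitors NFKBIA (214 ± 17.7 to 343 ± 23.5 CPM) and NFKBIB (0.68), and ZFP36 (0.62), which marks cytokine mRNAs for decay. That count was 2 without any 1 of the control libraries. Of 14 inflammasome genes 4 fell and none rose (none by DESeq2 or limma voom, 1 at an unadjusted p under 0.05), and 2 fell without control replicate 1 or 2 or anti-VEGFA replicate 3. CASP1, the protease that matures IL-1, measured 57.3, 71.4 and 56.3 CPM in control and 29.2, 31.9 and 30.03 CPM with anti-VEGFA (adjusted p = 2.97e-05), and AIM2, CASP4 (-0.45) and CARD16 (-0.95) were the other members that fell. The shares called were 37.8% of the cytokines, 16.7% of the NF-kB genes and 28.6% of the inflammasome genes, against 11.0% over all tested genes.

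Surface receptors of macrophages split as well. In pattern recognition, 2 of 17 tested genes rose and 3 fell, 29.4% called against 11.0% over all tested genes. CD14, the coreceptor for bacterial lipopolysaccharide, measured 821, 650.4 and 784 CPM in control and 1403, 1216 and 1539 CPM with anti-VEGFA, 1.84-fold higher (adjusted p = 0.0079), with OE-MMP28 at 1310.2 ± 425 CPM. The adaptor MYD88 went the other way, from 134 ± 14.3 to 60.5 ± 6.33 CPM, as did TLR1 (-0.66) and the fungal glucan receptor CLEC7A (-0.67), although CD14, TLR1 and CLEC7A were not called without control replicate 2. Of 19 tested scavenger receptors and M2 markers 1 rose and 5 fell. MARCO, a scavenger receptor for bacteria, went from 3.79 ± 0.335 to 8.27 ± 0.201 CPM, whereas MSR1 (-0.56), SCARB2, CD209, the matrix protein FN1 (-0.66) and PDCD1LG2 (-0.76), a ligand of PD-1, fell. The count of these falls was 2 without control replicate 3 or anti-VEGFA replicate 2 or 3, 3 without control replicate 1 or 2, and 3 with the GC and length offsets, where MSR1 (adjusted p = 0.070) and FN1 (adjusted p = 0.055) were lost. Of 15 M1 markers TNF rose and CXCL10, CXCL11 and IDO1 fell, and 5 fell with the GC and length offsets. The checkpoint ligand CD274 went from 33.0 ± 1.82 to 21.6 ± 7.15 CPM (adjusted p = 0.043, and 0.13 with the GC and length offsets), a call also lost without any 1 control library. Among 11 Fc receptor genes, which bind antibodies such as the one added, the inhibitory receptor FCGR2B (-0.63) and the cytosolic receptor TRIM21 (-1.49) fell. None rose by any of the 3 tools, and 2 were higher at an unadjusted p under 0.05. Without any 1 control library or anti-VEGFA replicate 2 the FCGR2B call was lost. The shares called were 31.6% of the scavenger receptors and M2 markers, 26.7% of the M1 markers and 18.2% of the Fc receptor genes, against 11.0% over all tested genes.

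The immediate early genes, which respond to signals within the first hour, changed in opposite directions. Of 25 tested, 8 fell and 5 rose, a share of calls of 52% against 11.0% over all tested genes. FOS, a subunit of the transcription factor AP-1, measured 673, 821 and 793 CPM in control and 283, 325 and 299 CPM with anti-VEGFA (log2 fold change -1.34 ± 0.17, adjusted p = 3.61e-05). FOSB measured 61.0, 101.1 and 88.9 and 23.4, 15.8 and 22.2 CPM. DUSP1, the phosphatase that shuts down MAP kinases, went from 323 ± 20.1 to 157 ± 28.9 CPM, and EGR1, ATF3, NR4A3, KLF4 and KLF6 fell by less than 2-fold. On the other side, the anti-apoptotic IER3 measured 587, 551 and 662 CPM in control and 1119, 1086 and 1181 CPM with anti-VEGFA (adjusted p = 0.0021). The nuclear receptor NR4A1 measured 5.01, 3.75 and 4.20 and 11.9, 9.71 and 10.5 CPM, IER2 went from 87.6 ± 7.21 to 158 ± 23.7 CPM, and IER5 and the AP-1 subunit JUND rose by 0.69 and 0.58 on the log2 scale, members outside the naming rule given to complete the count. Leaving out anti-VEGFA replicate 2 left 5 falls and 4 rises, leaving out control replicate 1, 2 or 3 left 5, 4 or 7 falls and 4, 3 or 3 rises, and FOS, FOSB, DUSP1, IER2, IER3 and NR4A1 kept their calls in 23 alternatives, the threshold on fold aside.

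Several of these genes also differed from TAMs cocultured with MMP28-overexpressing cells without antibody. In that direct comparison, which shares the anti-VEGFA libraries, 55 genes (0.343%) were called, 50 higher and 5 lower with anti-VEGFA, and 45 of them were also called against control. FOS measured 673, 606 and 594 CPM in the OE-MMP28 libraries, all above the anti-VEGFA libraries (direct log2 fold change -1.05 ± 0.16, adjusted p = 0.010). For FOSB the direct difference was -1.30 ± 0.26 (adjusted p = 0.038), for NR4A1 1.41 ± 0.23 (adjusted p = 0.012) and for OSR2, a zinc finger transcription factor, -1.30 ± 0.27 (adjusted p = 0.044). OSR2 measured 11.8, 13.9 and 12.4 CPM in control, 7.86, 6.96 and 5.87 CPM in OE-MMP28 and 2.55, 3.62 and 2.29 CPM with anti-VEGFA, 3 groups that did not overlap. For DUSP1, IER2 and IER3 the direct difference did not pass the threshold (adjusted p = 0.064, 0.064 and 0.075). The neuronal early gene ARC measured 21.6, 18.4 and 17.2 CPM in control, 18.2, 12.98 and 20.8 CPM in OE-MMP28 and 41.3, 35.9 and 42.0 CPM with anti-VEGFA (direct adjusted p = 0.0057). LSMEM1, a membrane protein gene, IQCN, HSPA2 and ACAP3, an ARF GTPase-activating protein, were likewise higher than in both other groups. The direct count depended on single libraries and tools: it was 1402 without OE-MMP28 replicate 3, 8 without OE-MMP28 replicate 2, 11 without OE-MMP28 or anti-VEGFA replicate 1, 84 without anti-VEGFA replicate 2, 26 to 32 without anti-VEGFA replicate 3, anti-IL-8 replicate 2 or any 1 control library, 429 with DESeq2 and 1 when only the 2 groups were fitted.

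**Figure D4:**
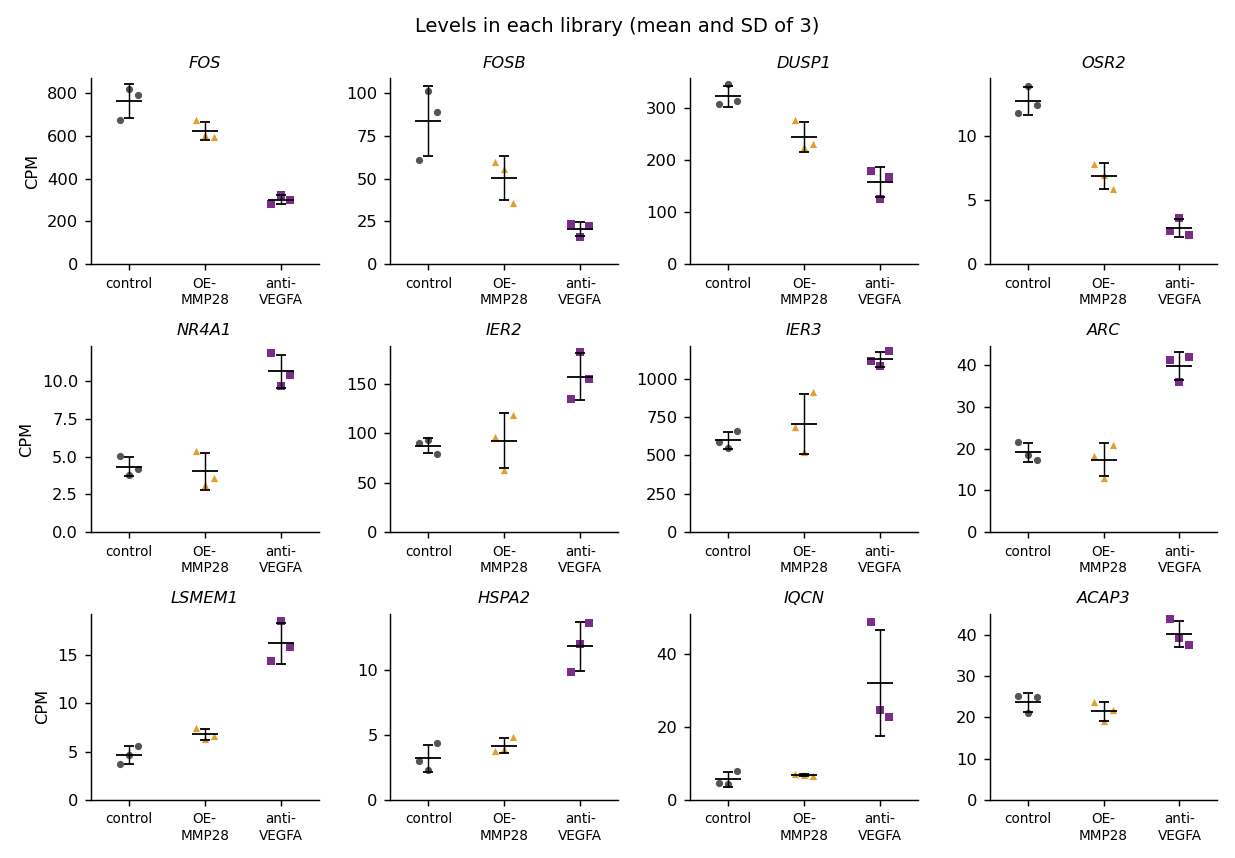
Level in each library (y axis, CPM from 0) of 12 genes in control, OE-MMP28 and anti-VEGFA TAMs; points are libraries, and bars give the mean and SD of 3. FOS, FOSB, DUSP1 and OSR2 are lowest with anti-VEGFA, and NR4A1, IER3, ARC, LSMEM1, HSPA2, IQCN and ACAP3 are highest there in all 3 libraries.

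The largest rises were genes of low level, and all 12 named by the rule had means under 50 CPM with anti-VEGFA. EDN2, which encodes the vasoconstrictor endothelin-2, had 0, 1 and 5 counts in the control libraries, 4, 3 and 12 in OE-MMP28 and 107, 42 and 49 with anti-VEGFA (adjusted p = 2.15e-04 against control and 0.023 against OE-MMP28). IQCN, an IQ motif protein, had the highest level of the 12, with 4.48, 4.27 and 7.93 CPM in control, 7.04, 6.67 and 6.55 CPM in OE-MMP28 and 48.7, 24.5 and 22.6 CPM with anti-VEGFA. HSPA2, a testis-enriched HSP70 chaperone, measured 2.95, 2.25 and 4.32 and 9.80, 11.9 and 13.6 CPM. The somatostatin receptor gene SSTR3 had 4, 11 and 15 counts in control and 103, 50 and 81 with anti-VEGFA. Genes known from striated muscle stood among them, though no gene list covered muscle. ATP2A1, the calcium pump of fast muscle, had 11, 19 and 14 counts in control and 79, 65 and 70 with anti-VEGFA. ACTA1, skeletal muscle actin, had 6, 6 and 11 and 47, 73 and 35. PYGM, muscle glycogen phosphorylase, had 20, 9 and 10 and 88, 90 and 52. ASGR1, a receptor for asialoglycoproteins, and C9, the pore-forming complement protein, went from 0.956 ± 0.481 to 6.32 ± 4.49 CPM and from 2.51 ± 0.756 to 10.2 ± 2.10 CPM. CILP2 and ADM5 rose by 2.28 and 1.90 on the log2 scale. BOLA2B, at 1, 4 and 9 counts in control and 14, 23 and 417 with anti-VEGFA, rested on replicate 3, without which it was not called, as without any 1 control library, and the near-identical copy BOLA2 makes its reads uncertain. The 11 other genes kept their calls wherever they were tested, ACTA1, ADM5, ASGR1, CILP2, EDN2, PYGM and SSTR3 not being tested with a minimum of 10 counts in each of the 12 libraries. All 12 kept an adjusted p under 0.05 with the GC and length offsets. The 10 promoters found for these 12 genes held no ISRE match, where 2.99% of tested genes with a promoter in the table held one. With so few promoters this does not set the rises apart from other genes.

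Genes of vessels and matrix changed in part. Of 22 tested VEGF ligands, receptors and angiogenic factors, EDN2 rose and 4 fell: the receptor kinase TIE1 (97.5 ± 16.8 to 56.2 ± 11.8 CPM), the growth factor AREG (121 ± 9.85 to 61.8 ± 18.5 CPM), the endothelin receptor EDNRA (-1.18) and EDN1 (-0.75). The TIE1 call was lost without control replicate 1, where 2 of the 4 falls were called, and with the GC and length offsets 2 members rose. The share called in this list was 22.7%, against 11.0% over all tested genes. The protease inhibitors SERPINB2 (-0.94) and SERPINA1 (-0.80) and the matrilysin MMP7 (-0.75) fell. The stromelysin gene MMP10 measured 2.12, 2.02 and 2.49 CPM in control and 6.24, 5.91 and 7.15 CPM with anti-VEGFA, and the collagenase MMP1 (78.4 ± 12.7 to 130.2 ± 37.4 CPM) and ADAM8 (0.99) rose. The call of MMP1 was lost without control replicate 2 or anti-VEGFA replicate 3, that of ADAM8 without control replicate 1 and with the GC and length offsets (adjusted p = 0.054), and that of SERPINB2 without control replicate 3. In adhesion, 8.33% of 24 members were called, below the 11.0% over all tested genes. They were SELPLG, the ligand of P-selectin, which rose (3.15 ± 0.654 to 8.61 ± 0.308 CPM), and VCAM1, which fell (7.92 ± 0.761 to 2.67 ± 1.06 CPM). There were 2 falls under the offsets and 5 without anti-VEGFA replicate 1. Of 7 tested acute phase genes 2 rose and 1 fell. ORM1 (2.48 ± 0.877 to 7.11 ± 1.70 CPM, with the close copy ORM2) and HAMP rose, the latter at no more than 17 counts in any of the 6 libraries. The fall was that of SERPINA1, already named.

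**Figure D5:**
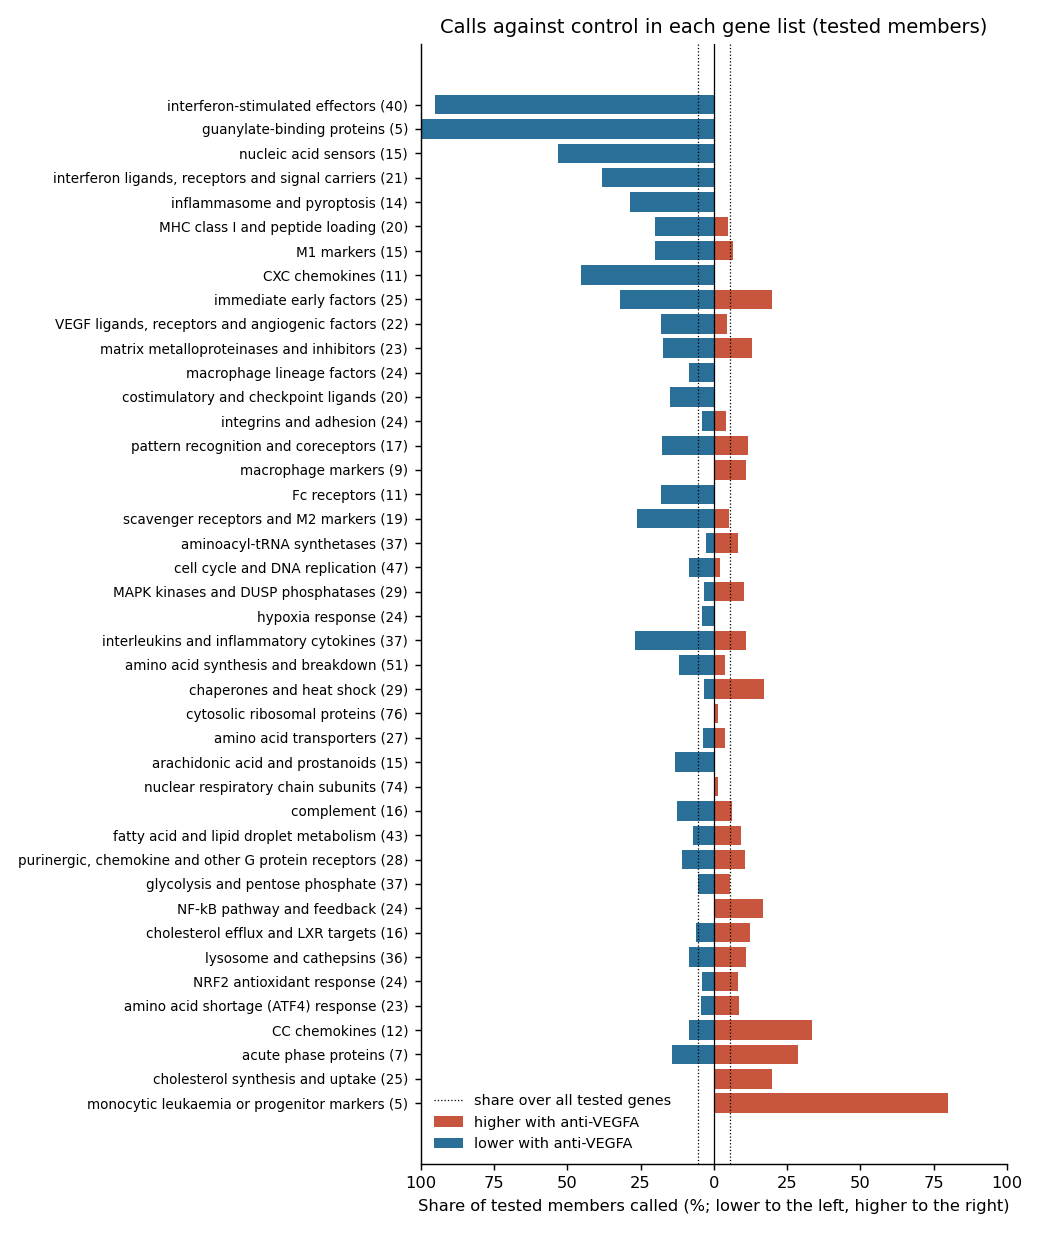
Share of tested members called lower (left) and higher (right) with anti-VEGFA than in control, in percent, for lists with at least 5 tested members (number in brackets) and at least 1 call, ordered by median log2 fold change. Dotted lines mark the shares over all tested genes, 5.37% lower and 5.60% higher; the interferon lists stand far to the left.

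Lipid genes gave modest rises, while lipoprotein lipase fell. Of 25 tested genes of cholesterol synthesis and uptake 5 rose and none fell by edgeR, DESeq2 or limma voom (1 at an unadjusted p under 0.05), with a median of 0.27. The share called was 20%, against 11.0% over all tested genes. MVD, an enzyme of the mevalonate route, measured 40.2, 38.3 and 37.2 CPM in control and 62.7, 68.8 and 67.9 CPM with anti-VEGFA (adjusted p = 0.0050), DHCR7, which makes cholesterol in the last step, went from 14.6 ± 3.03 to 28.4 ± 6.18 CPM, and MVK (0.79), EBP (0.61) and MSMO1 (0.48) were the others. This count was 1 without control replicate 2, 2 without control replicate 1 or anti-VEGFA replicate 3, 3 without control replicate 3, and 4 with the GC and length offsets, where MVK was lost (adjusted p = 0.063). SREBF1, a regulator of lipid synthesis, rose by 0.69, its target FASN by 0.64 and the lipase PNPLA2 by 0.57, FASN and PNPLA2 with an adjusted p of 0.25 and 0.13 under those offsets. LPL, which frees fatty acids from lipoproteins, measured 3305, 3293 and 3509.6 CPM in control and 2165, 1538 and 1686 CPM with anti-VEGFA (adjusted p = 8.93e-04). APOE, the lipid carrier, measured 1116, 954 and 962 and 1434, 2028 and 1922 CPM, a call lost with the offsets (adjusted p = 0.090) and without any 1 control library or anti-VEGFA replicate 2 or 3. ACADM (-0.61), MGLL (-0.62) and LIPA (-0.54), which act in fat breakdown, fell. The call of LIPA was lost with the offsets (adjusted p = 0.13) and without any 1 control library. The annotated span of LIPA also holds IFIT1, IFIT2 and IFIT3 on the other strand. With a kit that does not mark strand, its reads may not be fully told apart from theirs.

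Some genes of amino acid metabolism changed between anti-VEGFA and control. The study took up this metabolism from other comparisons, OE-MMP28 against control and antibody against OE-MMP28. The counts here therefore do not test its result. Of 51 tested enzymes of amino acid synthesis and breakdown 2 rose and 6 fell, 15.7% against 11.0% over all tested genes, with a median of 0.01. PHGDH, the first enzyme of serine synthesis, measured 169, 168 and 129 CPM in control and 284, 286 and 250.4 CPM with anti-VEGFA (adjusted p = 0.0064), and its OE-MMP28 level was 281 ± 79.0 CPM. ASS1, of arginine synthesis, rose by 0.60. Of the tryptophan-degrading enzymes, TDO2 measured 665, 838 and 751 and 462, 500.3 and 470.4 CPM, KMO went from 5.06 ± 0.810 to 2.23 ± 1.04 CPM, and IDO1 fell from 1.23 ± 0.298 to 0.192 ± 0.0739 CPM. ODC1 and SAT1 of polyamine turnover and GATM of creatine synthesis fell by 0.50, 0.45 and 0.48 on the log2 scale. Among 27 transporters SLC7A5 rose (0.67) and the cystine carrier SLC7A11 fell (-0.57), and among 23 genes of the ATF4 response STC2 (0.86) and JDP2 (0.68) rose and ATF3 (-0.49) fell. Of 37 aminoacyl-tRNA synthetases MARS (0.40), TARS2 (0.57) and VARS2 (0.88) rose and EARS2 (-0.67) fell. The shares called were 7.41% of the transporters and 10.8% of the synthetases, against 11.0% over all tested genes, and with the GC and length offsets 2 transporters and 3 synthetases fell. Of the genes named here, ASS1, KMO, ODC1, SLC7A11, JDP2, ATF3, MARS and TARS2 lost their call when at least 1 control or anti-VEGFA library was left out, and 2 of the 6 falls among the enzymes remained in number without control replicate 2 and 3 without anti-VEGFA replicate 3.

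Among 37 genes of glycolysis and the pentose phosphate route, TKT (0.49) rose and HK3 (-1.35) and PFKFB4 (-0.47) fell. The share called in this list was 10.8%, against 11.0% over all tested genes. The TKT call was lost with the GC and length offsets (adjusted p = 0.069) and without any 1 control or anti-VEGFA library, and that of PFKFB4 without any 1 control library or anti-VEGFA replicate 2. Chaperones gave 5 rises and 1 fall among 29 members. HSPA1B measured 27.8, 26.2 and 26.4 and 54.3, 49.7 and 51.4 CPM and HSPA1A rose by 1.00, although these copies are near-identical and their reads are split with uncertainty, and DNAJB1 (0.57), HSF1 (0.49) and HSPA2 rose beside them, while PDIA4 (-0.66) fell, a call lost without control replicate 1. In the lysosome, CTSD (0.73), CTSA (0.52), CTSK (0.59) and NEU1 (0.57) rose, and LAMP3 (-1.23), LIPA and ATP6V0D2 (-0.95) fell, of 36 members. CTSD, LIPA and ATP6V0D2 lost the call with the offsets (adjusted p = 0.067, 0.13 and 0.050), and none of the 4 rises was called without control replicate 1 or 2 or anti-VEGFA replicate 3. The shares called were 20.7% of the chaperones and 19.4% of the lysosome genes, against 11.0% over all tested genes. Of 47 cell cycle genes 4 fell, among them CDK1 (11.1 ± 0.702 to 5.64 ± 0.191 CPM) and CCNA2 (6.15 ± 0.475 to 2.63 ± 0.775 CPM), and MCM7 (0.57) rose, 10.6% called against 11.0% over all tested genes. Of the granule genes of immature myeloid cells AZU1 (29.7 ± 3.79 to 56.3 ± 11.9 CPM), ELANE (0.89) and PRTN3 (0.77) rose, together with the progenitor factor MYB (0.62), 4 of 5 tested, while CTSG was not called (-0.22). With the GC and length offsets 2 were called, ELANE (adjusted p = 0.16) and PRTN3 (adjusted p = 0.19) being lost, and none was called without control replicate 2 or 3.

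Several groups gave few or no calls. None of 13 mitochondrially encoded subunits was called by edgeR, DESeq2 or limma voom, with 4 higher at an unadjusted p under 0.05 and a median of 0.55, beside the 17.8% mitochondrial share of replicate 2. Of 74 nuclear respiratory chain subunits 1 was called, NDUFA13, a call lost without control replicate 3 or anti-VEGFA replicate 1, and with the GC and length offsets 3 were higher. No S100 protein or annexin (16 tested) and no metallothionein or zinc transporter (10 tested) was called by any of the 3 tools, with 5 and 2 past an unadjusted p of 0.05. Among 24 hypoxia genes 1 was called, PFKFB4, as lower. Of 29 MAP kinase and DUSP genes 3 were higher and 1 lower, 13.8% against 11.0% over all tested genes. Of those rises DUSP8 (adjusted p = 0.74) and MAP2K7 (adjusted p = 0.20) were lost with the GC and length offsets.

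Part of the proteins that the study measured or neutralized, and receptors of VEGFA and IL-8, were looked up at the RNA level. None of the genes given below was called by edgeR in the comparison with control. The log2 fold change against control was 0.02 ± 0.15 for VEGFA (adjusted p = 0.94), with 881, 810.0 and 825 CPM in control and 923, 668 and 966 CPM with anti-VEGFA. It was 0.15 ± 0.18 for CXCL8, which encodes IL-8 (adjusted p = 0.63), and 0.26 ± 0.15 for CCL2. For the VEGFA receptors and coreceptors it was -0.25 ± 0.12 (FLT1), -0.15 ± 0.13 (NRP1) and 0.43 ± 0.15 (NRP2), and KDR was not tested, at 3 to 13 counts over the 12 libraries. The M1 marker CD86 had 14, 26 and 14 counts in control and 23, 9 and 14 with anti-VEGFA, and the M2 marker CD163 55, 63 and 68 and 70, 27 and 73. Their log2 fold changes of -0.23 ± 0.46 and -0.15 ± 0.31 were smaller than their standard errors, which hold spread between libraries as well as counting error. These values show neither a change nor its absence. ITGAM, which encodes CD11b, gave -0.17 ± 0.16, ANXA2 0.33 ± 0.14 and MAPK8, which encodes JNK1, -0.40 ± 0.14 (adjusted p = 0.078). NRP2, ANXA2 and CCL2 passed the threshold with the GC and length offsets, as higher (adjusted p = 0.022, 0.036 and 0.047). NRP2 also passed with the replicate block, with the mitochondrial share as a covariate and without anti-VEGFA replicate 2, and MAPK8, as lower, with only the groups compared and without OE-MMP28 replicate 2 or 3. NOS2, IL2, IL5, CXCR1, CXCR2 and MRC1 had at most 7 counts in any of the 12 libraries and were not tested.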

How the data were processed

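RNA of the 12 libraries was made into libraries with the NEBNext Ultra kit, which does not mark strand. Per the submitters' processing notes, reads were aligned with HISAT2 (version 2.0.5) and counted per gene with featureCounts (version 1.5.0-p3). The deposited counts are whole reads per gene, not normalized. The deposited FPKM columns and the columns of the authors' own comparisons (group means, fold changes and their p-values, raw and adjusted) were not used. The genome build is not stated in the sources used here, but all 58676 of the 58735 genes found in GENCODE release 29 (GRCh38) had the same coordinates.

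Genes were kept with edgeR filterByExpr (16046 of 58735). TMM scaling and edgeR's quasi-likelihood test (version 4.0.16) were fitted over all 4 groups of 3 libraries, with Benjamini-Hochberg adjustment over all tested genes and a threshold of 0.05. Levels are CPM with TMM scaling. The test was checked on simulated counts with known changes. These had the same dispersion for all genes and no GC trend, so that the check does not cover calls under such a trend. Alternatives included DESeq2 (version 1.42.0), limma voom (version 3.58.1), other scalings and filters, a replicate block, leaving out each library, and offsets for GC content and transcript length (lowess span 0.3), the last added after the data were seen. Promoter sequences came from RefSeq on GRCh38.p14.

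Genes were named by rule: the 12 largest changes in each direction among called protein-coding genes averaging 50 counts or more in whichever group was higher, with no overlap of the libraries, up to 3 called members of each of 52 gene lists in each direction, the proteins of the study, and up to 6 genes in each direction that also differed from OE-MMP28. Other members of short lists were named after their values had been seen, to complete a count. The comparison, the lists and the rule were chosen with earlier results of these data known. Libraries of a group were not duplicates of each other: the smallest chi-square per degree of freedom between 2 libraries was 5.89. Replicate numbers did not pair the libraries, with correlations of -0.017, 0.044 and -0.048 between same-numbered deviations from the group means. Some results are not reported here.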

Additional observations from a re-analysis of the deposited data

How the results depend on the processing

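Against control, 1760 genes were called, 898 higher and 862 lower. At an unadjusted p of 0.05 the counts were 4325, 2296 and 2029, and with a log2 fold change of at least 1 they were 544, 282 and 262. Leaving out 1 library gave 662 to 2582 calls, 261 to 1417 rises and 401 to 1165 falls, the lowest of each without control replicate 2 and the highest without OE-MMP28 replicate 2. Without anti-VEGFA replicate 2, with its high mitochondrial share, 671 genes were higher and 647 lower, and with the mitochondrial share as a covariate 808 and 844. DESeq2 called 1102 and 1002, limma voom 830 and 884, and library totals in place of TMM 717 and 785. With the offsets for GC content and length, added after the data were seen, the counts were 898 and 1009. Calls over all gene lists (213) were 402 at an unadjusted p of 0.05, 95 with a log2 fold change of at least 1 and 136 to 281 when 1 library was left out.

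Anti-VEGFA against OE-MMP28 (55 calls) moved most: 429 with DESeq2, 400 with no filter other than 1 count, 310 with the mitochondrial share as a covariate, 3019 at an unadjusted p of 0.05, 34 with a log2 fold change of at least 1, 1 when only the groups compared were fitted, and 8 (without OE-MMP28 replicate 2) to 1402 (without OE-MMP28 replicate 3) when 1 library was left out. The cause was not tested.

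The replicate numbers did not pair the libraries. With a replicate block 1756 genes were called, 872 higher and 884 lower, 37 against OE-MMP28 and 223 over the gene lists.

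Of the 149 called genes named by rule, 90 kept the call in each of the up to 23 alternatives in which they had a value, the thresholds on fold and on unadjusted p aside, and none changed direction in these. The fall of the interferon effectors was called in 35 to 40 genes under the alternatives run. At 15852346 to 18701195 counts, genes with few counts, such as CD86, allow no firm statement, and counting error is only part of the spread.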

Other observations

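Smaller groups outside the text above also held a few calls with anti-VEGFA against control. Of 28 tested G protein-coupled receptors 3 rose and 3 fell. CXCR4, the receptor of CXCL12, went from 26.2 ± 0.795 to 42.3 ± 8.02 CPM (mean ± SD, n = 3, log2 fold change 0.69 ± 0.15, edgeR adjusted p = 0.0079), whereas CCR1, a receptor of CCL3, went from 259 ± 12.6 to 155 ± 19.4 CPM (adjusted p = 8.13e-04). The other calls were SSTR3 and P2RY1 (1.36) as higher and HCAR2 (-1.27) and LPAR6 (-0.62) as lower, the last lost without control replicate 2 or 3 or anti-VEGFA replicate 1 or 3. Of 16 complement genes SERPING1, the C1 inhibitor and itself interferon-responsive, fell from 19.6 ± 1.15 to 7.22 ± 1.24 CPM and C5 by 0.93 on the log2 scale, and CFP, which encodes properdin, rose by 1.09, a call lost without control replicate 1 or 3 or anti-VEGFA replicate 2. Of 15 prostanoid genes the phospholipase PLA2G4A (-0.74) and the receptor PTGER2 (-0.66, lost without control replicate 1) fell and none rose by edgeR, DESeq2, limma voom or at an unadjusted p under 0.05. The shares called were 21.4% of the G protein-coupled receptors, 18.8% of the complement genes and 13.3% of the prostanoid genes, against 11.0% over all tested genes. Of 24 macrophage lineage factors KLF4 and BHLHE41 (-0.60) fell, a share of 8.33%, and 6 fell with the GC and length offsets. Among 24 NRF2 response genes OSGIN1 (1.24) rose and SLC7A11 fell, with 12.5% of this list called against 11.0% over all tested genes.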
